A study of Mus musculus with 8 samples.

Results

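The sites bound by wild-type NANOG were sorted by where they lay against the enhancer mark H3K4me1 in mouse embryonic fibroblasts (MEFs) undergoing reprogramming. A FLAG site was the summit of a FLAG peak, and FLAG is the tag on NANOG. A site was called inside when its summit lay within an H3K4me1 peak, flanked when the nearest H3K4me1 peak edge was within 1 kb, and far otherwise. Of 58940 FLAG sites, 35049 were inside (59.5%, 95% Wilson interval 59.1 to 59.9), 3621 were flanked (6.14%, 5.95 to 6.34) and 20270 were far (34.4%, 34.0 to 34.8). These sizes depend on the peak threshold beyond the printed intervals. With peaks of a score of at least 100 in every list 41.7% were inside and 1.80% flanked, and when each list was limited to its 20000 highest-scoring peaks the shares were 37.6% and 0.965%. The FLAG list and the 72242 H3K4me1 peaks are part of 425777 peaks in all 8 lists of the series.

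The assay was CUT&Tag, in which an antibody guides a transposase that tags nearby DNA, and it was carried out on day 5. The MEFs of the study came from embryos fathered by Oct4-GFP reporter mice. The NanogWT arm (Nanog+Oct4 in the labels) was MEFs infected with retroviruses for Oct4 and wild-type Nanog. The NanogBiD arm (NanogN70+Oct4 in the labels) received the same Oct4, with Nanog joined to the part of SS18 that binds BRG1. FLAG, BRG1 (the ATPase of the BAF remodelling complex, also called SMARCA4), H3K27ac and H3K4me1 were profiled in both arms, with 1 library per target and arm. The labels give the antibody of the H3K4me1 libraries as H3K4me, while their titles say H3K4me1. Both NANOG and OCT4 were expressed from viruses in cells that also carry their own copies of these genes, and an arm without exogenous NANOG was not analysed here. Replicates had been merged before peaks were called, and their number is not stated for these lists. The study gives only a general minimum number of repeats for all its experiments. Hence no spread between cultures can be given and no test was made. All intervals below cover counting error only.

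NANOG is a homeodomain transcription factor of the pluripotent embryo and of embryonic stem cells, where it binds together with OCT4 and SOX2. H3K4me1 is laid down by the MLL3 and MLL4 methyltransferases over a broad region around enhancers, whether or not they are active. It also commonly borders active promoters, whose centres tend to carry H3K4me3 instead. H3K27ac is added by p300 and CBP at active enhancers and promoters. In fibroblasts, distal enhancers are commonly held by AP-1 and TEAD factors.

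The DNA under the summits is shown for sites chosen by a fixed rule, the tallest FLAG summit that held a given motif in a given class on the chromosomes used for sequences. Each sequence is 101 bp centred on the summit, on the plus strand of GRCm38 (mm10), and capitals mark the letters that matched the motif on either strand. The composite OCT-SOX motif, at which OCT4 and SOX2 bind side by side, is shown for a distal site of each class, since it is the element by which pluripotency enhancers are commonly recognised.

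OCT-SOX inside, chr11:112811247-112811347: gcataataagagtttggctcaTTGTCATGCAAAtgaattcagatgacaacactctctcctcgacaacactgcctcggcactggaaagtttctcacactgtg
OCT-SOX flanked, chr15:68205870-68205970: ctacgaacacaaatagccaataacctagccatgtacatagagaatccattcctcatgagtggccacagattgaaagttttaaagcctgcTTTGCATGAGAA
OCT-SOX far, chr2:84597270-84597370: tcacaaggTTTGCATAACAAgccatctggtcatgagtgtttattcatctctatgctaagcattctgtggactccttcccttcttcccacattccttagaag

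The inside site is intergenic, 29.1 kb from the start of Sox9, which encodes a SOX family regulator of cartilage and other lineages. It had a FLAG summit of 43 tags, an H3K4me1 summit of 24 tags and a BRG1 summit of 16 tags. The flanked site lies in an intron of Zfat, 400 bp from an H3K4me1 peak, and had 30 FLAG tags with 14 BRG1 tags and 32 H3K27ac tags. The far site is intergenic, 12.4 kb from Ctnnd1 (p120 catenin of adherens junctions) and 7.45 kb from the nearest H3K4me1 peak. It had 38 FLAG tags and neither a BRG1 nor an H3K27ac peak in NanogWT. The motif as searched allows alternative bases, so the marked letters of the examples are not identical. On the strand that reads ATGCAAA, the SOX part is TTGT at the inside and far sites and TTCT at the flanked site, a weaker likeness to a SOX sequence. The examples were picked for their height, so a tall summit in each class follows from the rule. In NanogWT, BRG1 and H3K27ac peaks were present at the inside and flanked examples and absent at the far one. In NanogBiD the far example had 10 BRG1 and 16 H3K27ac tags. A single site does not describe its class.

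The AP-1 motif, the sequence bound by FOS and JUN proteins, is shown for an inside and a far distal site. The GC box of SP and KLF factors is shown for an inside promoter site, and the homeodomain core recognised by NANOG for a far promoter site.

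AP-1 inside, chr1:91022574-91022674: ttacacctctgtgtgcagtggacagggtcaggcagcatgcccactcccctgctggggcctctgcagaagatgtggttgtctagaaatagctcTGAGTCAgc
AP-1 far, chr9:97793578-97793678: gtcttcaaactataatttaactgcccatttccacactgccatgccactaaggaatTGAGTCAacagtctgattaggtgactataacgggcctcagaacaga
GC box inside, chr16:42875461-42875561: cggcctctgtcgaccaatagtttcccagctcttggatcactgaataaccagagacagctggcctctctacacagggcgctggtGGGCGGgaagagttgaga
NANOG core far, chr10:12962516-12962616: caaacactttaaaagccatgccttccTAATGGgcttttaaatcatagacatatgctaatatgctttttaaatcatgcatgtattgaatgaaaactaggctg

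The AP-1 inside site lies in an intron of Lrrfip1, 23.8 kb from a start of this gene, with 73 FLAG tags, 22 H3K4me1 tags, 24 BRG1 tags and 23 H3K27ac tags. The AP-1 far site lies in an intron of Clstn2, which encodes a calsyntenin, 239 kb from a start of this gene, with 49 FLAG tags and no BRG1 or H3K27ac peak in NanogWT, whereas the BRG1 list of NanogBiD had a summit of 29 tags there. The GC box site lies 370 bp from a start of Zbtb20, a zinc finger repressor, and 76 bp from the non-coding 4932412D23Rik, with 78 FLAG tags and 67 BRG1 tags. The NANOG core site lies 1.69 kb from the start of Stx11, a syntaxin of cytotoxic lymphocytes, and 1.38 kb from the nearest H3K4me1 peak, with 64 FLAG tags and 21 BRG1 tags. Its FLAG peak is wide enough to reach an H3K4me1 peak although its summit does not.

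The first comparison asked where in the genome the classes lay. Inside sites were the most promoter-rich class and far sites the least. Promoter sites, whose summit was within 2 kb of an annotated start, made up 32.6% of inside, 26.5% of flanked and 16.6% of far sites, against 26.7% of all FLAG sites. Flanked sites were below inside sites by 6.06 percentage points in this share (4.52 to 7.56) and above far sites by 9.95 points (8.45 to 11.5). The difference between flanked and inside sites was lost with stricter peaks, at -0.603 points (-4.38 to 3.30) for scores of at least 100 and -1.81 points (-8.69 to 5.33) for the 20000 highest-scoring peaks. Introns outside promoters held 35.6% of inside, 36.3% of flanked and 43.5% of far sites, and intergenic DNA held 29.6%, 34.7% and 37.4%. Exons outside promoters held 2.32% to 2.54% of each class.

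Read the other way, 72.6% of the 15733 promoter sites were inside and 21.3% far, whereas of the 43207 distal sites 54.7% were inside and 39.1% far. The flanked share was close to the same in both, 6.10% at promoters and 6.16% at distal sites. Within 500 bp of a start, 78.3% of sites were inside and 16.6% far. Beyond 50 kb from any start, the shares were 48.1% and 44.7%. The flanked share was 5.07% within 500 bp of a start and 8.66% beyond this and up to 2000 bp.

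**Figure D1:**
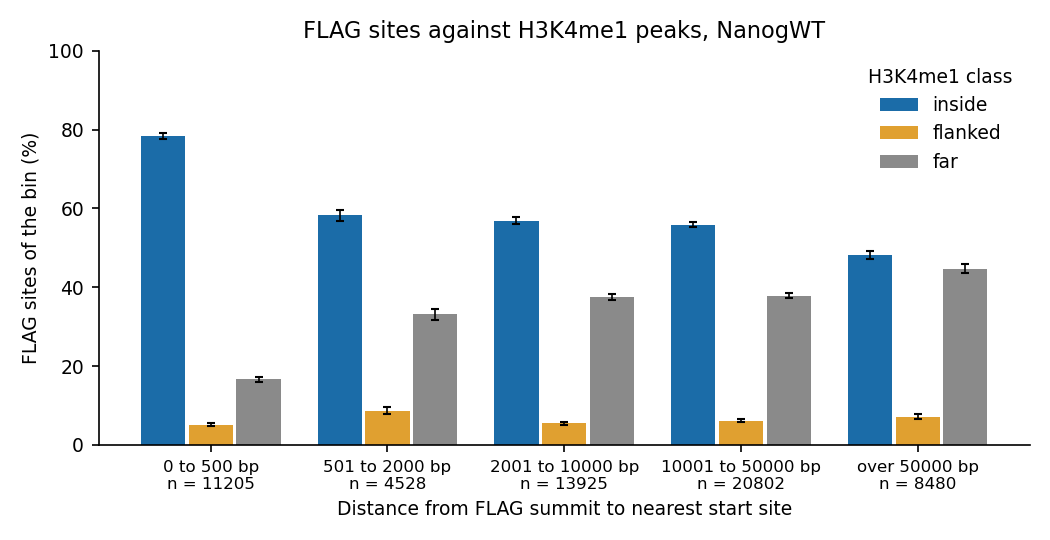
Share of FLAG sites (%, vertical axis) that were inside, flanked by or far from H3K4me1 peaks in NanogWT, by the distance of the summit from the nearest annotated start (horizontal axis, bp, with the number of sites per bin). Bars show the share and whiskers the 95% Wilson interval. The inside share was 78.3% in the bin nearest to starts and 48.1% in the bin beyond 50 kb.

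Annotated start sites showed the same arrangement. Of 24921 start sites with a FLAG summit within 250 bp, 81.5% were covered by an H3K4me1 peak, compared with 24.5% of the other 68538 start sites. Alternative starts of a gene are counted separately here and lie near each other.

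FLAG summits sat near the summits of the H3K4me1 peaks that held them. The distance from the FLAG summit to the H3K4me1 summit had a median of 125 bp (quartiles 46.0 and 255 bp), and 74.3% of inside sites lay within 250 bp (73.8 to 74.8). The median position of the FLAG summit was 50.5% of the way along the H3K4me1 peak, whose median width was 1136 bp. Evenly spread summits would give a similar median position, so it does not show that they were central. Promoter and distal inside sites were alike in this, with median summit distances of 117 and 129 bp. Most H3K4me1 peaks with a FLAG summit held only that summit, 34653 of 34851, and the other 198 held 2.

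Flanked sites mostly had an H3K4me1 peak within 1 kb on a single side. Their summits lay up to 250 bp outside the peak at 1259 sites and between 500 and 1000 bp at 1398. An H3K4me1 peak lay within 1 kb on both sides at 141 flanked sites (3.89%), and at 3480 on 1 side. Among those flanked on both sides 36.9% were at promoters (29.4 to 45.1), compared with 26.1% of those flanked on 1 side (24.7 to 27.6). At 2296 flanked sites (63.4%) the FLAG peak itself reached an H3K4me1 peak although its summit did not, and this held for 134 far sites (0.661%).

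Coverage by peaks around the summit is drawn for each class. At the summit of distal sites, H3K27ac peaks covered 51.8% of inside, 23.2% of flanked and 15.7% of far sites, and BRG1 peaks covered 45.8%, 16.9% and 13.8%. At promoters H3K27ac peaks covered 84.3%, 67.6% and 56.2% of summits, and BRG1 peaks 80.7%, 57.2% and 48.9%. In every class H3K27ac and BRG1 coverage was highest at or next to the FLAG summit, also in the flanked class, where H3K4me1 coverage was 0 at the summit by the definition of the class.

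**Figure D2:**
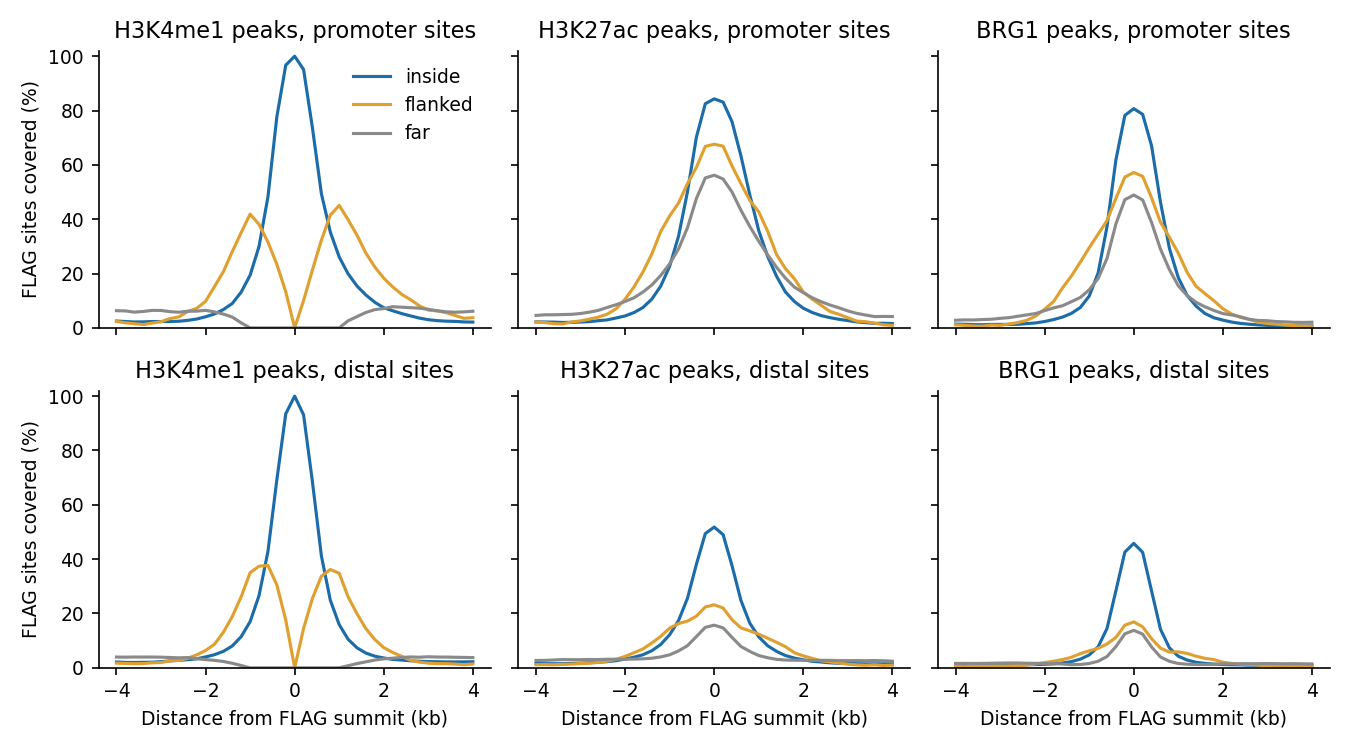
Share of FLAG sites (%, vertical axis) covered by an H3K4me1, H3K27ac or BRG1 peak of NanogWT at each distance from the FLAG summit (horizontal axis, kb), for promoter sites (top) and distal sites (bottom), with a line for each class. The shape of the H3K4me1 panels near the summit follows from how the classes were defined. At the summit of distal sites H3K27ac coverage was 51.8% for inside, 23.2% for flanked and 15.7% for far sites.

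FLAG summits were taller inside H3K4me1 peaks. The median height, in tags piled up at the summit, was 15 at inside, 13 at flanked and 13 at far sites. At promoters the medians were 17, 14 and 15, and at distal sites 15, 13 and 12. Summits of at least 30 tags made up 11.2% of inside sites (3917), 5.88% of flanked sites (213) and 5.04% of far sites (1022). The inside share rose with height, from 46.4% of sites with 6 to 9 tags through 54.4%, 62.0% and 69.5% to 76.0% of sites with 30 tags or more. The difference of the medians between inside and far was 0 when only the 20000 highest-scoring peaks of each list were used. In bulk libraries a lower pileup from fewer bound cells and from less binding per cell cannot be told apart.

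The tallest sites of each class show how large single summits were and what lay over them. Among inside promoter sites the tallest were at Pde1a, a phosphodiesterase of cyclic nucleotides (89 FLAG tags, 23 H3K4me1, 26 BRG1 and 33 H3K27ac), and at Sdcbp, the scaffold protein syntenin (86 FLAG, 22 H3K4me1, 51 BRG1 and 53 H3K27ac). Next came the Zbtb20 site already shown, with 78 FLAG tags. These 3 sites had peaks in all 8 lists.

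Among distal inside sites the tallest lay 98.0 kb from Fat3, an atypical cadherin, with 92 FLAG tags, 19 H3K4me1, 19 BRG1 and 16 H3K27ac. The others were near Slc14a2, a urea transporter (86 FLAG tags, 20 H3K4me1, 31 BRG1), and in an intron of Phyhipl (84 FLAG tags, 22 H3K4me1, 24 BRG1). Tag heights of different antibodies are not on a common scale, so only the presence of the other peaks is compared.

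The tallest flanked promoter sites were at Dnah8, an axonemal dynein heavy chain (57 tags, 949 bp from the H3K4me1 peak), and at the small RNA genes Rnu1a1 (54 tags, 935 bp) and Rnu3b3 (52 tags, 694 bp), both within Tex14 and 4.39 and 21.5 kb from its nearest start. The distal ones were 188 kb from Tox3 (60 tags), 269 kb from Nuak1 (58 tags) and 440 kb from Erbb4 (56 tags). The site near Nuak1 had no BRG1 or H3K27ac peak in NanogWT, and the other 5 had both.

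The tallest far promoter sites were at Aloxe3, an epidermal lipoxygenase (67 tags), at the non-coding D030068K23Rik (66 tags) and at Stx11 (64 tags), lying 1.42, 3.44 and 1.38 kb from H3K4me1 peaks. At Aloxe3 and Stx11 the FLAG peak itself reached an H3K4me1 peak, which held for only 0.661% of far sites. The tallest far distal site was in an intron of Myo18b, a muscle myosin, with 92 tags, 17.4 kb from H3K4me1, with 34 BRG1 and 37 H3K27ac tags. The far distal sites near Dph6 (71 tags, 28.3 kb from H3K4me1) and near Trpm3 (68 tags, 18.8 kb) also had BRG1 summits, of 20 and 24 tags. Thus the tallest far distal site equalled the tallest inside one, and these 3 far sites carried BRG1 and H3K27ac without an H3K4me1 peak of the same arm. Over the whole class such sites were a minority.

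The lists that the classification did not use are compared next. A FLAG site was counted as having another target when a peak of that list overlapped the FLAG peak by at least 1 bp. BRG1 peaks were present at 44.1% of all FLAG sites, 74.0% of promoter sites and 33.2% of distal sites. At promoters BRG1 was present at 81.9% of inside, 62.8% of flanked and 50.7% of far sites. At distal sites the shares were 47.6%, 22.1% and 14.7%, a difference of 32.9 points between inside and far (32.1 to 33.7).

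H3K27ac followed the same order, against 48.9% of all FLAG sites, 78.7% at promoters and 38.1% at distal sites. At promoters it was present at 85.3% of inside, 73.2% of flanked and 57.8% of far sites. At distal sites the shares were 53.8%, 30.5% and 17.3%, with a difference of 36.4 points between inside and far (35.6 to 37.3). Flanked distal sites exceeded far ones by 13.2 points for H3K27ac (11.4 to 15.1) and by 7.42 points for BRG1 (5.79 to 9.12). The median FLAG peak was 1016 bp wide at inside, 998 bp at flanked and 811 bp at far sites, and a wider peak has more room for an overlap. With the BRG1 peak required to cover the summit itself, the distal difference was 32.0 points.

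Both BRG1 and H3K27ac were present at 38.5% of distal inside, 15% of distal flanked and 8.89% of distal far sites. Neither was present at 37.1%, 62.4% and 76.9%. Distal sites with both had median FLAG heights of 20, 22 and 23 tags in the 3 classes, and distal sites with neither had 12, 12 and 11 tags. In every class the sites with both marks therefore had taller FLAG summits than those without.

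Taller FLAG sites had BRG1 more often in all classes, and inside sites remained apart from far sites at equal height. At distal sites of 6 to 9 tags BRG1 was present at 17.3% of inside and 3.28% of far sites. At 15 to 19 tags the shares were 50.8% and 17%, and at 30 tags or more 89.7% and 69.3%. For H3K27ac at 30 tags or more they were 87.9% and 62.9%. Promoter sites of 30 tags or more had BRG1 at 98.9% of inside and 86.7% of far sites. Flanked and far sites were less far apart, with overlapping intervals for BRG1 at distal sites of 30 tags or more (76.7%, 69.6 to 82.6, against 69.3%, 65.9 to 72.4).

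**Figure D3:**
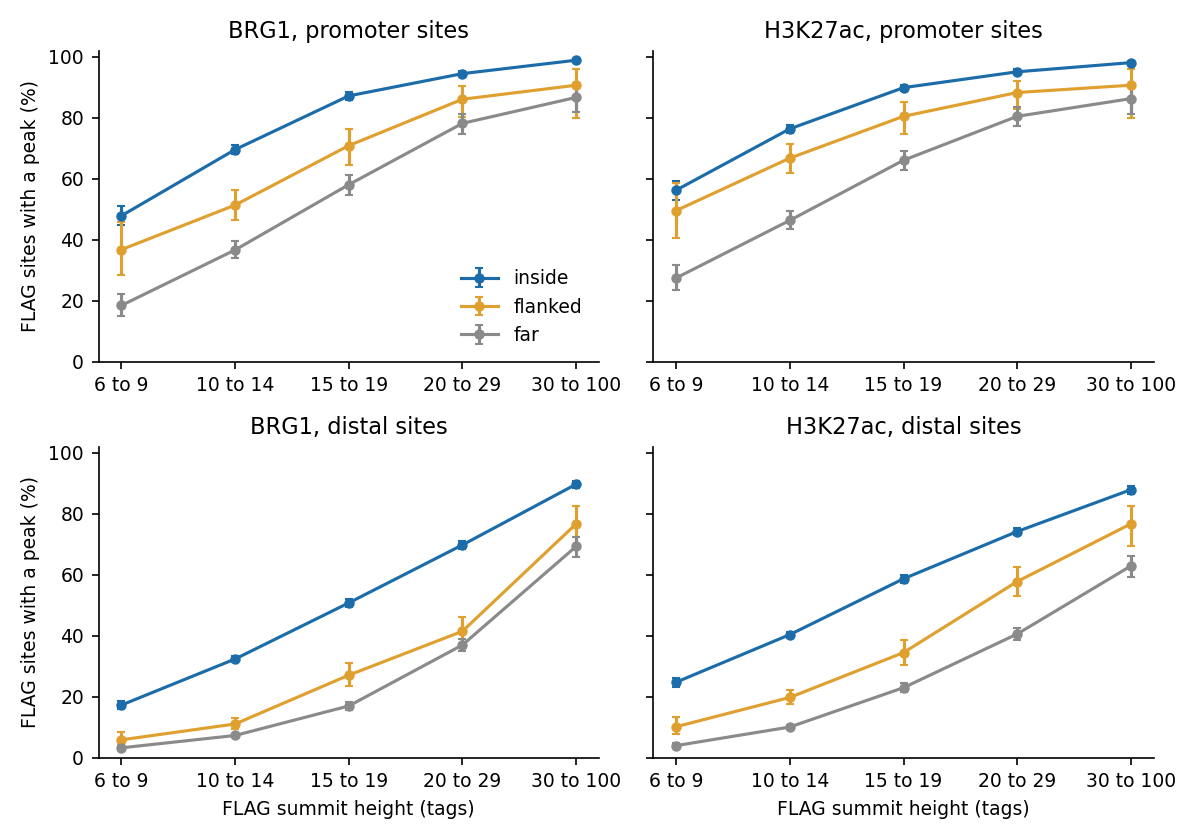
Share of FLAG sites (%, vertical axis) that overlapped a BRG1 peak (left) or an H3K27ac peak (right) of NanogWT, by FLAG summit height in tags (horizontal axis), for promoter sites (top) and distal sites (bottom). Points are shares and whiskers 95% Wilson intervals, with a line for each class. At distal sites of 30 tags or more BRG1 was at 89.7% of inside and 69.3% of far sites.

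The height of the H3K4me1 summit itself went with the other lists. For inside sites whose H3K4me1 summit had 8 to 12, 13 to 17, 18 to 24 and 25 or more tags, the median FLAG height was 12, 14, 17 and 23 tags. BRG1 was present at 27.4%, 48.6%, 75.9% and 93.5% of these sites, and H3K27ac at 31.5%, 55.6%, 80.4% and 93.9%. The inside sites at the weakest H3K4me1 peaks thus had BRG1 no more often than flanked sites, at which the share was 32.9%.

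Outside H3K4me1 peaks, the BRG1 share was lowest at the sites farthest away. At distal sites BRG1 was present at 21.5% up to 250 bp outside a peak, 25.7% between 250 and 500 bp, 20.1% between 500 and 1000 bp, 19.1% between 1000 and 2000 bp, 15.7% between 5000 and 20000 bp and 9.60% beyond 20000 bp. At promoter sites the shares in these bins were 59.4%, 61.7%, 65.4%, 57.5%, 51.2% and 41%. Within 1 kb there was thus no steady fall with distance. Over promoter and distal sites, those in the last 100 bp within the 1 kb limit (n = 233) had BRG1 at 33.0% and H3K27ac at 43.3%, and those in the first 100 bp beyond it (n = 236) at 32.2% and 36%. At the peak edge, sites up to 100 bp inside (n = 1189) had BRG1 at 30.9% and H3K27ac at 37.3%, and sites up to 100 bp outside (n = 625) at 29.8% and 33.6%. The sites on either side of each limit were thus close to each other in BRG1 and less so in H3K27ac.

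Most FLAG sites of every class were also found with the NanogBiD fusion. A FLAG peak of NanogBiD was present at 76.3% of all sites, 85.8% at promoters and 72.9% at distal sites. At distal sites it was present at 76.9% of inside, 72.8% of flanked and 67.2% of far sites, a difference of 9.68 points between inside and far (8.79 to 10.6). BRG1 of the NanogBiD arm was present at 66.6%, 55.8% and 49.4% of these distal sites, compared with 59.2% of all distal sites, 81.6% of promoter sites and 65.2% of all FLAG sites. The inside-minus-far difference for BRG1 was thus 17.2 points (16.2 to 18.2) in the NanogBiD list and 32.9 points in the NanogWT list. The lists differ in number of peaks, 53748 and 30859, and the part that depth had in this was not tested. H3K27ac of NanogBiD was present at 45.6% of all distal and 82.4% of all promoter sites. Its distal shares were 59.6% of inside, 39.3% of flanked and 27.1% of far sites, a difference of 32.5 points between inside and far (31.6 to 33.4).

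H3K4me1 peaks of the NanogBiD arm covered many of the same sites. They were present at 55.4% of all FLAG sites, 74.1% at promoters and 48.6% at distal sites. For distal sites the shares were 69.5% of inside, 35.8% of flanked and 21.5% of far sites, and for promoter sites 88.1%, 53.1% and 32.5%. Some far promoter sites of NanogWT thus had an H3K4me1 peak in the other arm, although none lay within 1 kb of the summit in their own.

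Sites differed in how many of the 6 lists not used to define the classes had a peak there. All 6 were present at 67.5% of inside, 33.3% of flanked and 19% of far promoter sites, and at 27%, 6.80% and 2.60% of distal sites. The shares over all classes were 55.1% of promoter and 16.2% of distal sites. None of the 6 was present at 1.71% of inside, 5.73% of flanked and 11.2% of far promoter sites, and at 7.32%, 16.5% and 24.4% of distal sites. Most far sites thus had a peak in at least 1 of these lists.

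The H3K4me1 peaks were also sorted by FLAG. Of 72242 peaks, 34851 held a FLAG summit (48.2%), 4922 had one within 1 kb (6.81%) and 32469 had none within 1 kb (44.9%). Peaks that held a FLAG summit were taller and wider, with medians of 17 tags and 1133 bp against 14 tags and 820 bp for those with none. They overlapped H3K27ac in 64.0% and BRG1 in 58.8% of cases, compared with 14.7% and 9.31% of peaks with no FLAG summit nearby. The share that held a FLAG summit was 26.7% at H3K4me1 heights of 8 to 12 tags, 45.2% at 13 to 17, 68.3% at 18 to 24 and 87.4% at 25 tags or more. The share with a FLAG summit thus rose with H3K4me1 height, and most peaks without one nearby had no H3K27ac or BRG1 peak.

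Base composition, which the sorting did not use, differed between the classes. In a window of 250 bp either side of the summit, promoter sites had a median of 30 CpG dinucleotides at inside, 20.5 at flanked and 11 at far sites. Their median GC content was 59.7%, 53.0% and 48.5%. Distal sites had medians of 6, 4 and 4 CpG and 45.7%, 40.7% and 41.3% GC. The inside share rose with the number of CpG, from 48.6% of promoter sites with 0 to 4 to 79.9% with 20 or more, and from 44.5% to 84.2% of distal sites. CpG-poor promoter sites were therefore divided almost evenly between inside and the other classes.

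At equal CpG number the classes still differed in BRG1, least so at CpG-rich promoters. Promoter sites with 20 or more CpG had BRG1 at 94.0% of inside and 88.0% of far sites, and H3K27ac at 95% and 93.9%. Promoter sites with 0 to 4 CpG had BRG1 at 51.5% of inside and 17.5% of far sites. Distal sites with 0 to 4 CpG had BRG1 at 42.2% and 12.9%.

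Motifs were searched on both strands in 101 bp centred on the summit, and the window of the same size 1 kb away served as the background. A match describes the letters present and shows no binding. AP-1 (TGAGTCA) was found at 7.82% of distal inside sites (7.48 to 8.17), 4.77% of flanked sites (4.03 to 5.65) and 6.15% of far sites (5.80 to 6.52), with 6.98% of all distal sites and 1.66% of windows 1 kb away. The E-box CAGCTG, bound by basic helix-loop-helix factors, was at 9.53% of distal inside, 6.61% of flanked and 6.87% of far sites (8.31% of all distal sites and 4.11% of windows away). Both motifs were thus more frequent at inside than at far distal sites.

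SOX and homeodomain sequences ran in the opposite order. SOX sequences (ACAAAAG, or the variant ACAAAGG, the variant ACAATAG or the variant ACAATGG) were at 7.62% of distal inside, 8.87% of flanked and 10.1% of far sites, compared with 8.68% of all distal sites and 7.25% of windows away. The NANOG core (TAATGG) was at 5.08%, 6.35% and 6.82%, compared with 5.84% of all distal sites and 4.14% of windows away. The SOX share of inside sites (7.29 to 7.97) was close to that of windows 1 kb from them (7.17%), whereas at far sites it exceeded theirs (7.43%).

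The octamer ATGCAAAT, the binding sequence of POU factors such as OCT4, did not separate inside from far. It was at 2.11% of inside (1.94 to 2.30), 2.71% of flanked (2.15 to 3.39) and 2.0% of far distal sites (1.80 to 2.22), with 2.10% of all distal sites and 0.743% of windows away. The composite OCT-SOX motif was rare, at 29 distal inside, 5 flanked and 17 far sites, or 0.123%, 0.188% and 0.101%, with 0.118% of all distal sites. TEAD (GGAATG) was at 8.08%, 8.49% and 8.28%, and RUNX (TGTGGTT) at 3.48%, 3.72% and 3.80%, with overlapping intervals. TEAD was at 8.18% of all distal sites and 5.42% of windows away, and RUNX at 3.62% and 2.37%.

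At promoters the GC box (GGGCGG) was at 24.2% of inside, 17% of flanked and 13.9% of far sites, with 21.5% of all promoter sites and 3.57% of windows away. By class the windows away held it at 3.26%, 8.02% and 3.37%. The ETS sequence (CCGGAAG) was at 3.97%, 2.60% and 2.41%, with 3.55% of all promoter sites and 0.604% of windows away. At flanked sites its interval (1.77 to 3.82) overlapped that of their own windows away (1.67%, 1.03 to 2.69). AP-1 was at 2.64%, 2.71% and 2.62% of inside, flanked and far promoter sites and at 2.64% of all promoter sites, so its difference between classes was seen at distal sites only. The CTCF motif, that of an insulator protein, was at 0.229% of inside, 0.263% of flanked and 0.130% of far distal sites, with 0.192% of all distal sites.

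**Figure D4:**
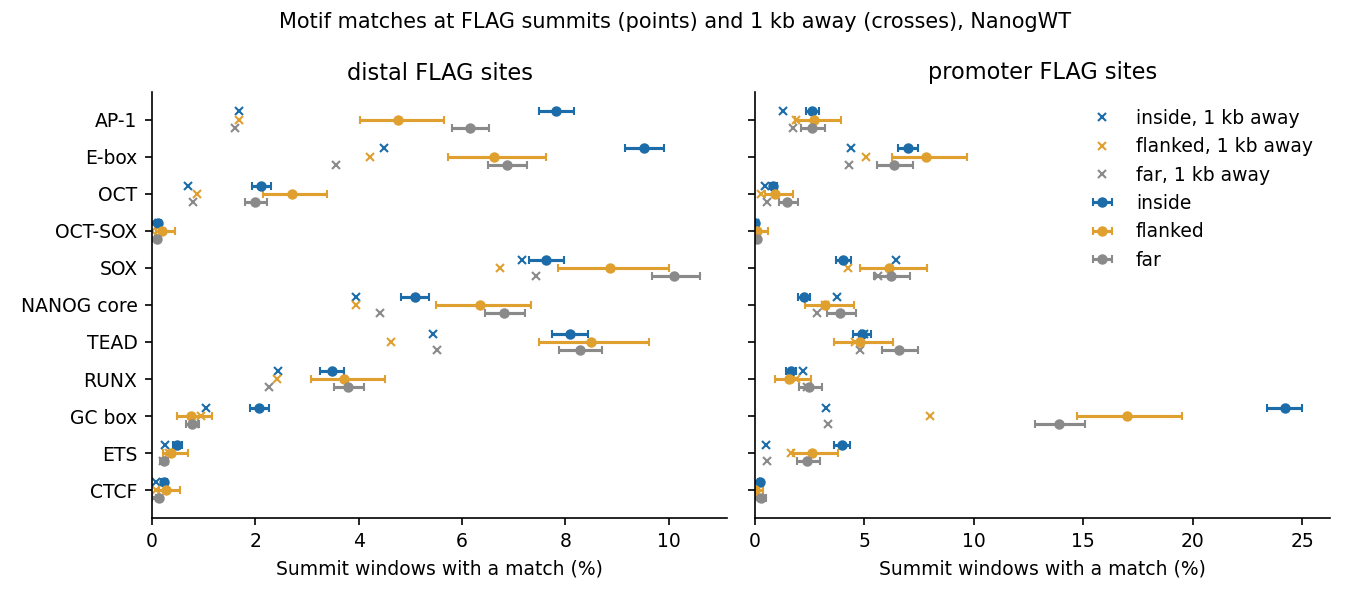
Share of 101 bp windows with a motif match (%, horizontal axis) at FLAG summits (points, with 95% Wilson intervals) and 1 kb away (crosses), for each motif (vertical axis) and class, at distal sites (left) and promoter sites (right). AP-1 was at 7.82% of inside and 6.15% of far distal sites, and SOX sequences at 7.62% and 10.1%.

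Distal sites with an AP-1 match had BRG1 more often than those without, 60.4% against 46.5% at inside sites and 21.1% against 14.3% at far sites. A NanogBiD FLAG peak was present at 84.4% against 76.3% of inside and at 78.4% against 66.5% of far sites. Distal sites with a NANOG core match also had a NanogBiD FLAG peak more often, 83.3% against 76.6% inside and 76.7% against 66.5% far. Their BRG1 shares were not higher, 43.8% against 47.8% inside and 13.4% against 14.8% far.

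FLAG sites were next assigned to the nearest start of a protein-coding gene within 100 kb, which names a neighbour and not a target. At least 1 FLAG site was assigned to 65.5% of 21924 genes, an inside site to 56.3%, a flanked site to 10.3%, a far site to 33.5%, and sites of which none was inside to 9.20%. An inside site within 2 kb of the gene's own start was found for 39.3% of genes, and a far one for 10.6%. H3K27ac peaks at gene starts (57.0% of genes) matched the labelled cell type, present at 9 of 10 fibroblast, 1 of 6 epithelial, 0 of 5 blood, 1 of 4 endothelial and 1 of 4 neuronal markers.

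Fibroblast and extracellular matrix genes nearly all had at least 1 FLAG site, 31 of 32 (96.9%, against 65.5% of all genes). Of 32 genes, 28 had an inside site (87.5%, against 56.3% of all genes), 8 a flanked site and 20 a far site (62.5%, against 33.5%). Of their 148 sites 62 were far and 77 inside (52.0%, 44.0 to 59.9), compared with 62.7% of the 46230 sites assigned to all genes. Without Postn, a choice made after seeing the data, the share was 56.4% of 133 sites, and its interval (47.9 to 64.5) holds the value of all genes. For the 10 fibroblast markers it was 63.6% (50.4 to 75.1) of 55 sites. Postn, which encodes the matrix protein periostin, had 13 far sites and 2 inside sites, the tallest far one with 60 tags, 89.3 kb from its start and 1562 bp from an H3K4me1 peak. The 2 inside sites of Postn had 51 and 19 tags. All FLAG sites in the body of Postn were of the far class.

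Vim, the intermediate filament vimentin, had an inside promoter site with 60 FLAG tags, 20 H3K4me1 tags, 46 BRG1 tags and 49 H3K27ac tags. Col6a1, a chain of collagen VI, had a flanked site with 41 tags, 17.7 kb from its start and 360 bp from an H3K4me1 peak. Fn1, fibronectin, had an inside promoter site with 27 tags and a far intronic site with 46 tags, which had no BRG1 or H3K27ac peak in NanogWT, while NanogBiD had 76 FLAG and 39 BRG1 tags there. At the start of Dcn, the proteoglycan decorin, the sole FLAG site had 15 tags and lay 42637 bp from the nearest H3K4me1 peak. Tagln was the only gene of the list with no FLAG site by the nearest start, although it had one in its gene body or within 20 kb of it. Fn1 and Dcn were named after their values were seen.

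Genes of AP-1 and TEAD factors and their targets all had FLAG sites (against 65.5% of all genes). Of 19 genes, 15 had an inside site (78.9%, against 56.3% of all genes), 4 a flanked site (21.1%, against 10.3%) and 14 a far site (73.7%, against 33.5%). The higher flanked share was lost with peaks of a score of at least 100, where none of the genes had a flanked site (against 2.26%). An inside site at the gene's own start was found for 13 (68.4%, against 39.3%). Ccn1, a matricellular protein and target of TEAD, had the tallest inside site (59 FLAG tags, 20 BRG1, 21 H3K27ac) and the tallest far site (35 tags, 3774 bp from H3K4me1, 11 BRG1 and no H3K27ac). Atf3, a stress-induced partner of JUN, had the tallest flanked site, at its promoter, with 30 tags, 392 bp from an H3K4me1 peak, with 32 BRG1 and 33 H3K27ac tags. Fosl1, Fosl2, Junb and Tead3, named after their values were seen, had far sites alone by the nearest start. With sites taken from the gene body and 20 kb either side, Fosl2 was the sole gene of the list with FLAG sites and none inside (5.26%, against 7.15% of all genes). The promoter site of Fosl2 had 31 FLAG, 44 BRG1 and 51 H3K27ac tags, 1178 bp from an H3K4me1 peak, and that of Junb had 19 FLAG, 30 BRG1 and 50 H3K27ac tags at 1760 bp.

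Pluripotency genes had FLAG sites about as often as all genes. Of 26 genes, 18 had any FLAG site (69.2%, against 65.5% of all genes), 17 an inside (65.4%, against 56.3%), 4 a flanked (15.4%, against 10.3%) and 6 a far site (23.1%, against 33.5%). By the gene body and 20 kb either side the order turned for any site (73.1%, against 77.5%) and for an inside site (65.4%, against 70.3%). Of their 41 sites 30 were inside (73.2%), and the interval of this share (58.1 to 84.3) holds the 62.7% of all genes. An inside site at the gene's own start was found for 6 of them (23.1%, 11 to 42.1, against 39.3% of all genes), and an H3K27ac peak at a start for 6 (against 57.0%). Prdm14, Dppa2, Dppa4, Dppa5a, Lin28a, Fgf4, Nr0b1 and Zfp296 had no FLAG site by the nearest start, and of these Lin28a and Zfp296 had one in the gene body or within 20 kb of it. Tbx3, a T-box factor also active in mesenchyme, had the tallest inside site, at its promoter, with 41 FLAG, 19 H3K4me1, 27 BRG1 and 30 H3K27ac tags. Zfp42 (Rex1), a marker of naive pluripotency, had the tallest far site with 14 tags, 9934 bp from H3K4me1 and without BRG1 or H3K27ac.

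The genes supplied as viruses need separate reading. Nanog had 4 inside sites, of 12, 9, 24 and 30 FLAG tags. The sites of 24 and 30 tags (chr6:122711404-122711825 and chr6:122712911-122713693) overlap exons of Nanog, and had H3K4me1 summits of 18 and 23 tags and H3K27ac summits of 39 and 47 tags. The viral Nanog sequence is the same as those exons, so that reads from the virus and from the gene cannot be told apart there. Pou5f1 (Oct4) had 1 inside site 5.19 kb upstream, with 15 FLAG and 46 H3K4me1 tags and no BRG1 or H3K27ac peak. The MEFs were derived from Oct4-GFP reporter mice, and whether reads from the reporter add to this site was not tested.

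The genes that the study named as examples were picked with data of these reprogramming cells in view, expression for some and NANOG and BRG1 binding and chromatin opening for others, so they are no independent sample. Of 10 genes, 8 had a FLAG site (against 65.5% of all genes), and all 8 had an inside one (against 56.3%). By the gene body and 20 kb either side the shares were 70.0% for any site (against 77.5%) and 70.0% for an inside site (against 70.3%). With peaks of a score of at least 100, 6 genes had a site (against 55.4% of all genes) and 4 an inside one (against 36.9%). Klf4, a reprogramming factor, had 2 inside sites (14 and 31 tags), a far site (12 tags) and a flanked site at its own promoter with 25 FLAG, 23 BRG1 and 33 H3K27ac tags, 670 bp from an H3K4me1 peak. Sox2 had an inside promoter site with 10 FLAG and 22 H3K4me1 tags and 2 far sites of 11 and 9 tags, all without BRG1 or H3K27ac. Esrrb, an orphan receptor of the pluripotency network, had 1 inside site (12 FLAG and 26 H3K4me1 tags), and Sall4 had 1 (8 and 15 tags), again without BRG1 or H3K27ac. So the H3K4me1 peaks at Sox2, Esrrb and Sall4 held low FLAG summits and neither of the other marks.

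Foxb1, a forkhead factor of the developing brain, had a flanked site of 22 tags with 12 BRG1 and 12 H3K27ac tags, and inside sites of 13 and 10 tags. Olig3, a neural bHLH factor, had 1 inside site of 13 tags. Thbd, thrombomodulin, had 1 inside site 1.15 kb from its start with 26 FLAG, 34 H3K4me1, 21 BRG1 and 21 H3K27ac tags. Dab2, an endocytic adaptor expressed in fibroblasts, had 3 inside, 2 flanked and 6 far sites. Its tallest site, 49 bp from a start, was far, with 30 FLAG, 11 BRG1 and 21 H3K27ac tags and the nearest H3K4me1 peak 26963 bp away. Dppa5a and Sox15 had no FLAG site by the nearest start, and Sox15 had one in its gene body or within 20 kb of it. Sites with both BRG1 and H3K27ac were thus found in this group in all 3 classes, inside at Thbd and Klf4, flanked at Klf4 and Foxb1, and far at Dab2.

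All 17 genes of the BAF complex had FLAG sites (against 65.5% of all genes). An inside site was found for 14 (82.4%, against 56.3%) and one at the gene's own start for 13 (76.5%, against 39.3%). Smarca2 (the BRM ATPase) had the tallest inside site, in an intron, with 60 FLAG and 16 H3K4me1 tags but no BRG1 or H3K27ac peak. Its tallest flanked site was at a promoter 68 bp from an H3K4me1 peak (29 FLAG, 18 BRG1 and 27 H3K27ac tags). Arid1a, the DNA-binding subunit, had the tallest far site with 27 tags.

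All 17 genes of the H3K4 methylation machinery had FLAG sites (against 65.5% of all genes), and 13 had an inside one (76.5%, against 56.3%). Of their 39 sites 22 were inside (56.4%, 41.0 to 70.7, against 62.7% for all genes), and 7 genes had a far site by the nearest start (41.2%, against 33.5% of all genes) but 12 by the gene body and 20 kb either side (70.6%, against 42.1%). Wdr5, a shared subunit of the methyltransferases, had the tallest inside site (33 tags), and Kmt2a (MLL1) the tallest flanked site, at its promoter, with 36 FLAG, 28 BRG1 and 30 H3K27ac tags, 868 bp from H3K4me1. Rbbp5, another shared subunit, had the tallest far site with 50 FLAG tags, 1250 bp from H3K4me1 and without BRG1 or H3K27ac.

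Of 17 epithelial genes 8 had an inside site (47.1%, against 56.3% of all genes) and 3 a far site (17.6%, against 33.5%). With sites taken from the gene body and 20 kb either side, 13 had an inside site (76.5%, against 70.3% of all genes) and 6 a far site (35.3%, against 42.1%), so the order of the inside share against all genes depended on the assignment. An inside site at the gene's own start was found for 3 (17.6%, 6.19 to 41.0, against 39.3% of all genes). Grhl2, a grainyhead factor of epithelia, had the tallest inside (30 tags) and flanked (13 tags) sites, and Esrp2, a splicing factor, the tallest far site (25 tags). Krt19, Cldn6, Cldn7, Ocln, Esrp1, Ovol1 and Crb3 had no FLAG site by the nearest start, and all but Krt19 and Ocln had one in the gene body or within 20 kb of it.

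Of 19 regulators of other lineages 12 had an inside site (63.2%, against 56.3% of all genes) and 8 a far site (42.1%, against 33.5%). By the gene body and 20 kb either side these shares were 63.2% (against 70.3%) and 36.8% (against 42.1%), so both orders depended on the assignment. An inside site at the gene's own start was found for 3 (15.8%, 5.52 to 37.6, against 39.3%), and 1 had H3K27ac at a start (5.26%, against 57.0%). Myog, of muscle, had the tallest inside site (33 FLAG, 20 H3K4me1, 20 BRG1 and 24 H3K27ac tags), Eomes the tallest flanked (12 tags) and Pax7, of muscle stem cells, the tallest far site (28 tags, 25595 bp from H3K4me1, without BRG1 or H3K27ac). Gata1, Myod1, Olig2 and Pdx1 had no FLAG site by the nearest start, and of these Gata1 and Pdx1 had one in the gene body or within 20 kb of it. The lists are small and their shares have wide intervals.

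Some genes had many sites of both kinds assigned to them. Pde4d, a cAMP phosphodiesterase, had the most inside sites (40) and also 19 far sites, matched in far sites by Pcdh15 (19) and followed by Rbfox1 (18), Enox1 (17) and Celf2 (16). After Pde4d, the most inside sites were at Foxp1 and Ptprm (24 each), Frmd4a (22) and Mast4 (21). Foxp1 had 13 far sites and Mast4 had 6.

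Chromosome X differed from the autosomes. The inside share was between 55.0% (chromosome 3) and 65.3% (chromosome 7) on the 19 autosomes, and 26.7% (24.3 to 29.3) of 1190 sites on X. At promoters it was 47.8% on X and 73.2% on autosomes, and at distal sites 16.6% and 55.4%. X held 0.854% of the H3K4me1 peaks on these chromosomes (617) but 2.02% of FLAG, 1.88% of H3K27ac and 1.76% of BRG1 peaks. In NanogBiD the shares on X were 0.868% of H3K4me1, 2.16% of FLAG, 1.79% of H3K27ac and 1.91% of BRG1 peaks. The low share of X was thus seen in both H3K4me1 lists and in none of the other 6. At X sites that were inside, BRG1 was present at 76.4%, and at far X sites at 23.5%, so the order of the classes was the same as on autosomes. The sex and X status of the cells were not analysed.

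**Figure D5:**
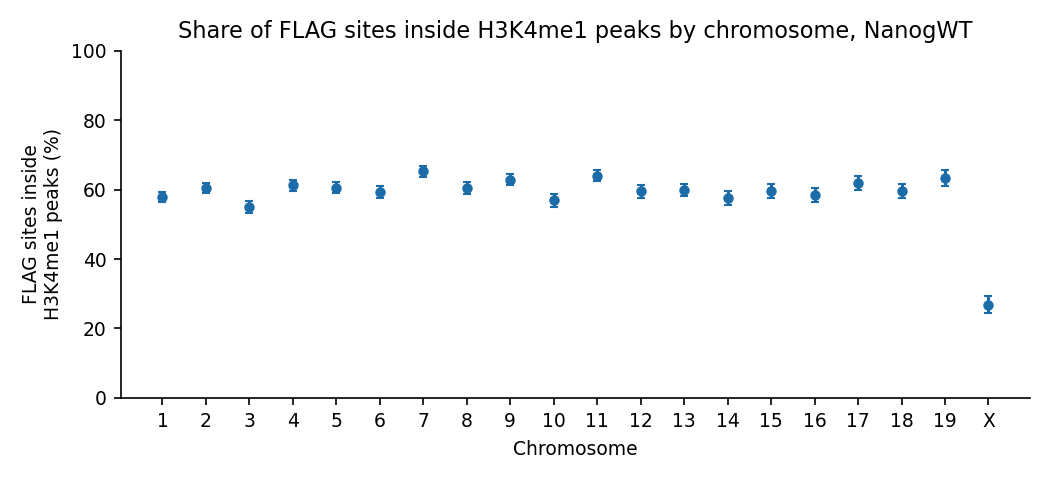
Share of FLAG sites inside H3K4me1 peaks of NanogWT (%, vertical axis) for each chromosome (horizontal axis). Points are shares and whiskers 95% Wilson intervals. Chromosome X lies at 26.7%, below all autosomes, which lie between 55.0% and 65.3%.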

How the data were processed

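CUT&Tag was performed on MEFs at day 5 with 1 deposited library for each of 4 targets in 2 arms. The authors trimmed reads with Trim Galore 0.6.4, aligned them to mm10 with Bowtie2 2.4.5, filtered out mitochondrial, repeat and low-quality alignments with SAMtools 1.16.1, merged replicates and called peaks with MACS 1.4.2, keeping a single tag per position. No control library or list of excluded regions is named. In the deposited peak lists the score is the significance score of MACS (lowest 50.0). The deposited summit lists hold a signal, the pileup of tags there, which was not scaled to depth and is called height. The number of tags per library is unknown, and fewer peaks are called from a shallower library, so an absent peak is not an absent mark.

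Summits were placed against H3K4me1 peaks of the same arm, and other lists by overlap of at least 1 bp. Start sites, genes and exons came from the GENCODE annotation, and sequences were read from the RefSeq copy of GRCm38 (printed ones exclude chromosomes 18 and Y). Promoters were 2 kb either side of a start. Motif windows were 101 bp and composition windows reached 250 bp either side of the summit. Shares have Wilson 95% intervals, differences of shares Newcombe score intervals and medians order-statistic intervals. Named sites were the 3 tallest of each class at promoters and at distal positions. Named genes were those with the tallest site of each class and those with no FLAG site in each list, 10 protein-coding genes among the study's own examples (a microRNA cluster it also names was not used here), and the 5 genes with the most inside or far sites. The members and lists were chosen with earlier results of these data known. Python 3.11.15, pandas 2.3.3, numpy 2.4.6, scipy 1.17.1 and pysam 0.24.0 were used. The counting code was checked on simulated data. The labels and the methods give different kits and cell numbers for these libraries.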

Additional observations from a re-analysis of the deposited data

How the results depend on the processing

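For 7 comparisons, 63 recomputed values were obtained. Of these, 32 stayed within the limits of the reported value, 31 moved and 0 changed sign. Part of this tally was fixed in advance. The class shares could not change sign, and the inside share could not move with the flank width. The limit to the main chromosomes kept 58935 of 58940 sites. Counting any overlap of the FLAG peak as inside gave an inside share of 63.6%, a flanked share of 3.93%, a median height difference (inside minus far) of 3 tags and a promoter difference (flanked minus inside) of -2.66 points. A flank of 500 bp gave 3.77% flanked and a promoter difference of -9.81 points. A flank of 2 kb gave 9.16% flanked and a height difference of 3 tags. Peaks with a score of at least 100 gave 41.7% inside, 1.80% flanked, a height difference of 1 tag, a promoter difference of -0.603 points (-4.38 to 3.30), and distal differences (inside minus far) of 24.3 points for BRG1, 31.0 for H3K27ac and 7.91 for NanogBiD FLAG. The 20000 highest-scoring peaks of each list gave 37.6%, 0.965%, 0 tags, -1.81 points (-8.69 to 5.33), 25.2, 29.6 and 8.28 points. Summits of at least 15 tags gave 52.8% inside, 3.45% flanked, a height difference of 3 tags and distal differences of 38.3, 39.3 and 5.71 points. Promoters of 1 kb gave a promoter difference of -7.72 points. Added after seeing the data, BRG1 peaks required to cover the FLAG summit gave 32.0 points, and leaving out chromosome X gave 60.1% inside. The cause of these shifts was not tested, except that stricter thresholds leave fewer H3K4me1 peaks.

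Of 130 counts for the gene lists, 83 stayed and 47 moved. At a score of at least 100, inside sites were found for 17 of 32 fibroblast and matrix genes and 10 of 26 pluripotency genes, compared with 36.9% of all genes. With motif windows of 25 bp either side, 84 of 88 shares moved, and inside and far distal sites kept their order for 11 of 11 motifs. No paired analysis was possible because the lists carry no replicate numbers and each is 1 merged library. Depth is unknown, so the class sizes are those of these lists, and sites called far may have H3K4me1 below the calling threshold.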
